A study of Homo sapiens with 8 samples.

Results

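INPP5D, SPI1, BACH1, TP53INP1, CEBPB, MAF, HIVEP2, PICALM and RHEB are genes that work in B cells, T cells, macrophages and other cells had reported as targets of miR-155. The arrays carried 11 probes for these 9 genes, found by the RefSeq accession of each probe. In all there were 41000 probes, of which 23958 could be given a symbol, for 16557 genes. CEBPB and PICALM had 2 probes each and the other genes 1 each. Signals were measured in ST486, a Burkitt lymphoma (BL) cell line, transduced with the empty retroviral MXW-PGK-IRES-GFP vector (EV cells) or with the same vector carrying the miR-155 precursor with its flanks (miR-155 cells). GFP+ cells were sorted in both cases, so both carry the vector and GFP and differ by the miR-155 insert. RNA came from the total (T) fraction and from an immunoprecipitation (IP) with an antibody against Ago2. Each of the 4 RNA samples was labelled once with Cy3 and once with Cy5, and the fractions of a vector shared arrays in either dye orientation, so that 4 arrays hold 8 channels.

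The labellings repeat the same RNA, so n = 1 for each vector and fraction, and no test between the vectors was possible. Values are given as the mean of the labellings, followed in parentheses by the value from the array with total RNA in Cy3 and then the value from the array with IP RNA in Cy3. The arrays of EV cells lay on 1 slide and those of miR-155 cells on another, so vector and slide cannot be told apart. The B-cell markers BLK, CD22, CD79A, CD79B, MS4A1 and VPREB3 were detected in all 4 total channels and EBF1 in 3, whereas PAX5 was detected in none. Of the 9 macrophage or monocyte markers with a probe, 0 were detected in all 4 total channels and 7 in none, and of the 7 T-cell markers 1 (CD8A) was detected in all 4 and 5 in none. The probe for MIR155HG, the transcript that harbours endogenous miR-155, was not well above background in any EV channel. It was detected in both total channels of miR-155 cells. Its total signal there was 7.71 (10.6 and 5.59) times that in EV cells, or 1.40 times with another background correction and normalization. As the EV signals were not well above background, the size of this difference is uncertain.

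MiR-155 is processed from a hairpin within its non-coding host transcript and is strongly induced when B cells, T cells and macrophages are activated. Loaded into Argonaute proteins such as Ago2, it pairs through its seed with sites that lie mostly in the 3′UTR of mRNAs, which are then translated less and degraded faster. A transcript that gains Ago2 when miR-155 is added would be more enriched in the IP fraction, and its total level may be lower. The mature strand is shown because its seed, in capitals at bases 2 to 8, is the part that selects the targets (RefSeq, GRCh38.p14, chr21:25573983-25574006, + strand, within the MIR155 hairpin).
hsa-miR-155-5p: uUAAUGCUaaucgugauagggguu
Of 2370 human mature miRNAs with a name in the table used, miR-155-5p alone had this seed. Sites matching it were not searched for in the transcripts here.

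Of the 11 probes, 9 were detected in at least 4 of the 8 channels, as were 47.5% of all probes, and 7 of these also differed by no more than 2-fold between the dyes of every RNA sample and were kept. The 7 probes measure INPP5D, BACH1, TP53INP1, CEBPB, HIVEP2, PICALM and RHEB. The single probes for SPI1 and MAF failed the detection filter, and the second probes for CEBPB and PICALM were removed for the difference between the dyes. The dye filter removed 20.2% of all detected probes, and 15529 probes were kept in all.

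The IP enrichment of a probe is its IP signal over its total signal (IP/T), and the miR-155/EV fold is the IP enrichment in miR-155 cells over that in EV cells. Like amounts of RNA were labelled and all channels brought to the same distribution of signals, so the IP enrichment is relative to other transcripts and is not the share of a transcript bound to Ago2. BACH1, RHEB and PICALM probe 1 were at least 2-fold enriched in the IP of miR-155 cells, at least 2-fold more than in EV cells. HIVEP2, INPP5D and TP53INP1 had miR-155/EV folds between 1.40 and 1.71. CEBPB probe 1 was enriched about 10-fold in the IP with either vector, with a miR-155/EV fold of 1.02. The study made its target list from these same arrays with the same thresholds. BACH1, PICALM and RHEB being past the thresholds is therefore not independent of that list.

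**Figure D1:**
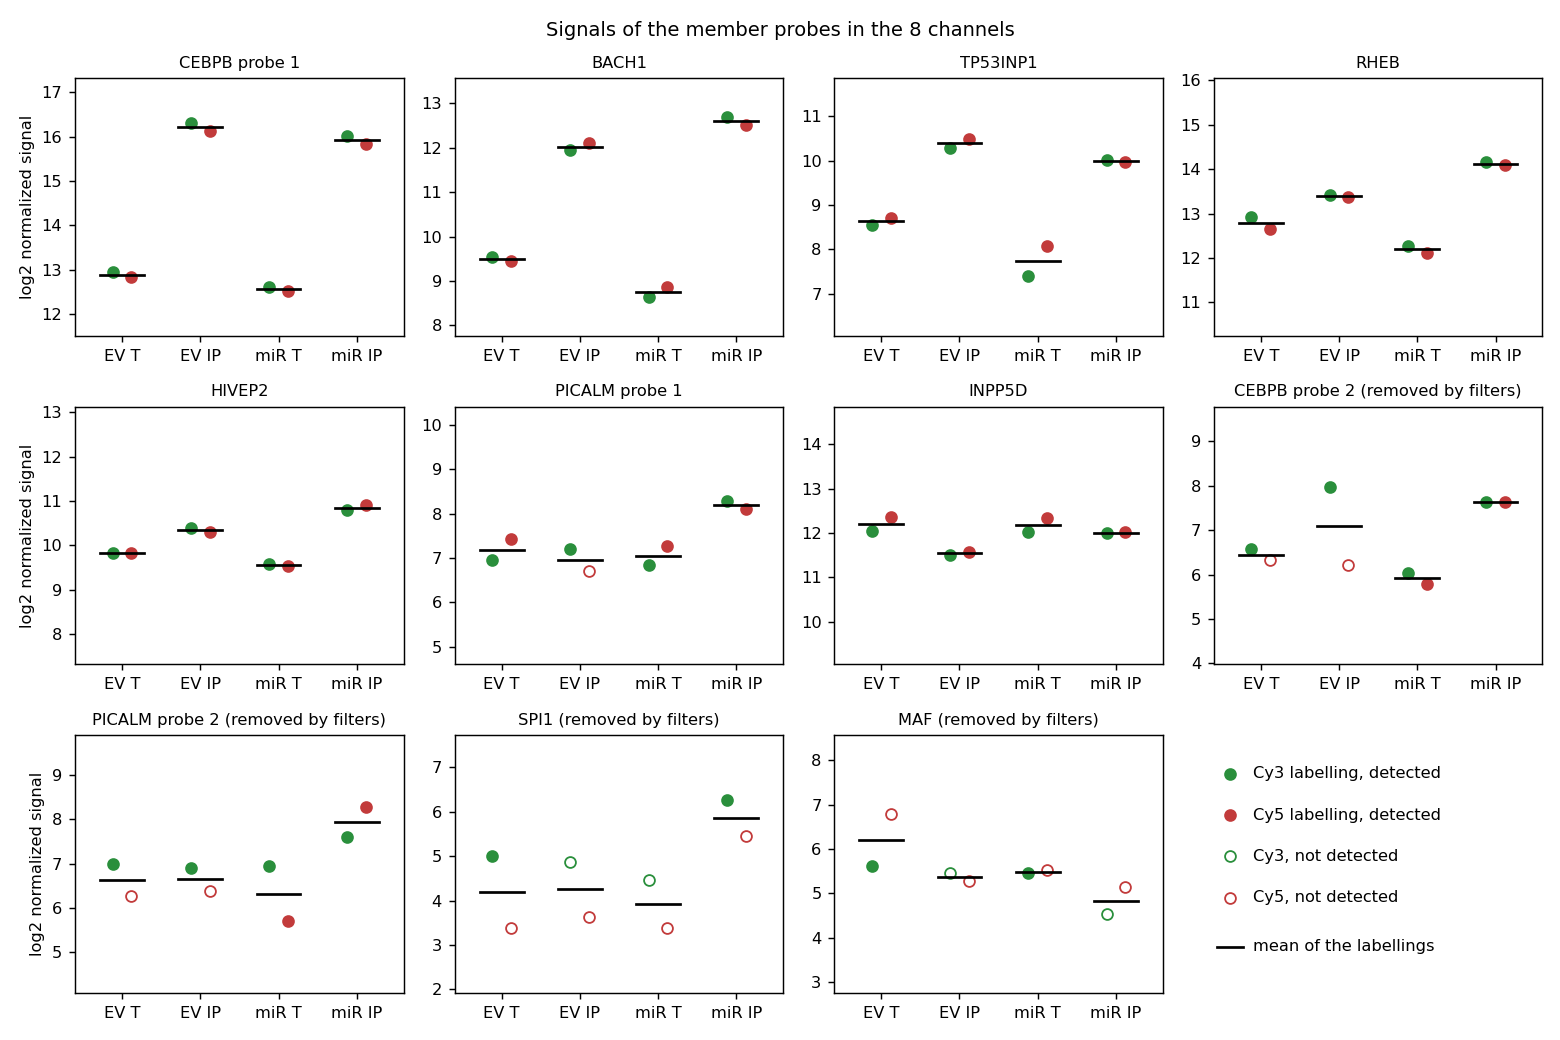
Log2 quantile-normalized signal of each of the 11 member probes in total (T) and IP RNA of EV and miR-155 (miR) cells. Green and red points are the Cy3 and Cy5 labellings, open points were not detected, bars are the mean of the labellings, and every panel spans the same number of log2 units. In miR-155 cells the IP signals of BACH1, RHEB, HIVEP2, INPP5D and both PICALM probes lay above both IP signals of EV cells. This needs a higher IP signal in both dyes, which 34.4% of all probes kept had.

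Among the transcription factors, BACH1 had the highest miR-155/EV fold of the probes kept. BACH1 is a heme-binding repressor that shuts off HMOX1, the ferritin genes and other antioxidant genes. Its normalized total signal was 742 (Cy3) and 694 (Cy5) in EV cells and 397 and 465 in miR-155 cells. Its IP signal was 3926 and 4418 in EV cells and 6615 and 5848 in miR-155 cells. In neither fraction did the labellings of the vectors overlap, and the fractions moved in opposite directions. How many of all probes kept have labellings without overlap was not counted, here or for the genes below. BACH1 had an IP enrichment of 5.80 (5.96 and 5.66) in EV and 14.5 (14.7 and 14.2) in miR-155 cells. This is a miR-155/EV fold of 2.50 (2.48 and 2.52), and 70 of the 15529 probes kept had a fold as high. BACH1 was thus past the enrichment threshold without ectopic miR-155 too. With normexp its IP enrichment was lower, 3.79 in EV and 7.37 in miR-155 cells (quantile) or 3.77 and 8.90 (loess and Aquantile), with miR-155/EV folds of 1.94 and 2.36. The total signal was 1.67-fold lower and the IP signal 1.49-fold higher in miR-155 cells.

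CEBPB encodes C/EBPβ, a bZIP transcription factor of the acute-phase response and of myeloid differentiation. Its probe 1 was printed on 10 spots. The total signal was 7946 (Cy3) and 7279 (Cy5) in EV and 6227 and 5890 in miR-155 cells. The IP signal was 80410 and 71821 in EV and 65939 and 57966 in miR-155 cells, and no spot was saturated. Both fractions were lower in miR-155 cells, by 1.26-fold in the total and 1.23-fold in the IP. IP enrichment was 9.99 (9.04 and 11.05) in EV and 10.2 (9.31 and 11.2) in miR-155 cells, and the miR-155/EV fold was 1.02 (1.03 and 1.01). The difference between the vectors was thus smaller than that between the dye orientations of either vector. Before quantile normalization, the IP enrichments of the single spots ranged from 8.92 to 11.1 and from 9.39 to 17.0 in EV cells, and from 8.85 to 9.49 and from 10.2 to 10.9 in miR-155 cells, so the spots of the vectors overlapped in both orientations. The miR-155/EV fold of probe 1 lay below 1 with normexp, loess and Aquantile (0.909) and without quantile normalization (0.921).

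The second CEBPB probe was dim and gave a different picture. Its total signal was 94.7 (Cy3) and 80.8 (Cy5) in EV and 66.0 and 55.0 in miR-155 cells. In the IP it gave 251 and 74.2 in EV cells and 200 and 199 in miR-155 cells. The IP labellings of EV cells differed 3.38-fold and enclosed those of miR-155 cells. The Cy5 labellings of EV cells were not detected in either fraction. The miR-155/EV fold of this probe was 2.12 (3.84 and 1.17), with the higher value from the arrays on which the IP labelling of EV cells was undetected. With normexp and quantile normalization, under which the probe was kept, it was 1.40.

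HIVEP2 is a large zinc-finger protein that binds NF-κB-like sites. Its total signal was 903 (Cy3) and 908 (Cy5) in EV and 768 and 740 in miR-155 cells. The IP gave 1344 and 1257 in EV and 1781 and 1920 in miR-155 cells. As for BACH1, no labellings overlapped between the vectors, and the total signal was lower while the IP signal was higher. The IP enrichment went from 1.44 (1.39 and 1.48), below the enrichment threshold, to 2.45 (2.50 and 2.41), above it. Its miR-155/EV fold was 1.71 (1.80 and 1.63), and with normexp and quantile normalization the IP enrichment of miR-155 cells was 1.87 and missed the threshold of 2.

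SPI1 encodes PU.1, an ETS factor that directs myeloid and B-cell development, and a reported miR-155 target in activated B cells. Its probe was detected in 2 of 8 channels, EV total RNA in Cy3 with a signal of 31.8 and miR-155 IP RNA in Cy3 with a signal of 77.1. In the other 6 channels it was not well above background, with signals between 10.4 and 43.9. With normexp, loess and Aquantile the IP signal in miR-155 cells was 1.13 times that in EV cells. Of the miR-155 labellings, 1 of 2 was above background. The IP enrichment in miR-155 cells was then 1.20, against 3.86 (2.00 and 7.44) with the reported processing.

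MAF is a bZIP factor of T helper cells, macrophages and plasma cells. Its probe was detected in 2 of 8 channels, the Cy3 labellings of total RNA, with signals of 49.0 in EV and 44.02 in miR-155 cells. The IP signals, between 23.1 and 44.1, were not well above background in any of the 4 channels, so no IP comparison between the vectors could be made for MAF. With normexp, loess and Aquantile the total signal was 1.09 times the IP signal in EV and 1.12 times it in miR-155 cells. Of the total labellings, 1 of 2 was above background with each vector. For both SPI1 and MAF these are ratios of signals near background, so they are neither folds of detected signals nor bounds.

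Of the signalling genes, RHEB encodes the small GTPase that activates mTORC1. Its total signal was 7703 (Cy3) and 6447 (Cy5) in EV and 4958 and 4443 in miR-155 cells. IP signals were 10974 and 10589 in EV and 18413 and 17388 in miR-155 cells. The labellings did not overlap in either fraction, and the IP labellings of either vector lay close together. RHEB thus went in IP enrichment from 1.53 (1.37 and 1.70) to 3.81 (3.51 and 4.14), with a miR-155/EV fold of 2.49 (2.55 and 2.43). The total signal was 1.501-fold lower and the IP signal 1.66-fold higher in miR-155 cells. RHEB was detected in all 8 channels, and its miR-155/EV fold stayed between 2.36 and 2.59 in all 12 ways of processing that were compared.

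INPP5D encodes SHIP1, the lipid phosphatase that removes the PI3K product PIP3 and restrains B-cell receptor signalling. Its total signal was 4231 (Cy3) and 5293 (Cy5) in EV and 4147 and 5185 in miR-155 cells. The IP gave 2911 and 3063 in EV and 4102 and 4133 in miR-155 cells. The total labellings of the vectors overlapped, with a total signal in miR-155 cells of 0.980 times that in EV cells, whereas the IP labellings did not. IP enrichment was below 1 with either vector, 0.631 (0.724 and 0.550) in EV and 0.888 (0.997 and 0.791) in miR-155 cells. Its miR-155/EV fold was 1.41 (1.38 and 1.44) and lay between 1.38 and 1.45 in all 12 ways of processing. INPP5D therefore showed a higher IP enrichment with miR-155 but was not enriched in the IP.

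TP53INP1 encodes a p53-induced stress protein that takes part in cell death and autophagy. Its total signal was 377 (Cy3) and 419 (Cy5) in EV and 169 and 271 in miR-155 cells. Its IP signal was 1256 and 1444 in EV and 1029 and 1003 in miR-155 cells. Both fractions were lower in miR-155 cells, by 1.86-fold in the total and by 1.33-fold in the IP, and the labellings overlapped in neither. IP enrichment was above 2 with either vector, 3.38 (3.83 and 2.99) in EV and 4.74 (5.93 and 3.79) in miR-155 cells. The miR-155/EV fold of 1.40 (1.55 and 1.27) thus came with a lower IP signal. Of the probes kept, 106 had a total signal as low or lower relative to EV cells. These sizes depended on the background correction. With normexp the total signal of miR-155 cells was 0.861 (quantile) or 0.704 (loess and Aquantile) times that of EV cells, less than 1.5-fold lower with either, and the IP signal was no longer lower with either, at up to 1.06 times that of EV cells. The miR-155/EV fold was then 1.20 or 1.51, and the IP enrichment of EV cells was below 2 (1.95 or 1.73).

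PICALM encodes a clathrin assembly protein that shapes endocytic vesicles. Probe 1 gave a total signal of 124 (Cy3) and 173 (Cy5) in EV and 115 and 153 in miR-155 cells. In the IP it gave 148 and 105.3 in EV cells, where the Cy5 labelling was not detected, and 313 and 276 in miR-155 cells. The total labellings overlapped and the IP labellings did not. The IP enrichment went from 0.853 (0.851 and 0.855) to 2.21 (2.40 and 2.04), with a miR-155/EV fold of 2.59 (2.82 and 2.38). The total signal in miR-155 cells was 0.909 times that in EV cells, and the IP signal was 2.36-fold higher.

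PICALM probe 2, removed by the dye filter, gave a total signal of 127 (Cy3) and 77.5 (Cy5) in EV and 124 and 51.9 in miR-155 cells. In the IP it gave 120 and 83.8 in EV and 194 and 310 in miR-155 cells. The Cy5 labellings of EV cells were not detected in either fraction, so each dye orientation of EV cells rests on an undetected channel. The measured IP enrichment went from 1.01 (0.659 and 1.55) to 3.06 (2.51 and 3.74), with a miR-155/EV fold of 3.03 (3.81 and 2.41). Both PICALM probes were thus higher in the IP of miR-155 cells in both labellings. Both were dim, and the size of their miR-155/EV fold depended on the background correction. With normexp and an offset of 50, the miR-155/EV fold of probe 1 was 1.62 (quantile) or 1.52 (loess and Aquantile) and that of probe 2 was 1.33 or 1.42, and the IP enrichment of probe 1 in miR-155 cells was 1.40 or 1.45, below the enrichment threshold.

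**Figure D2:**
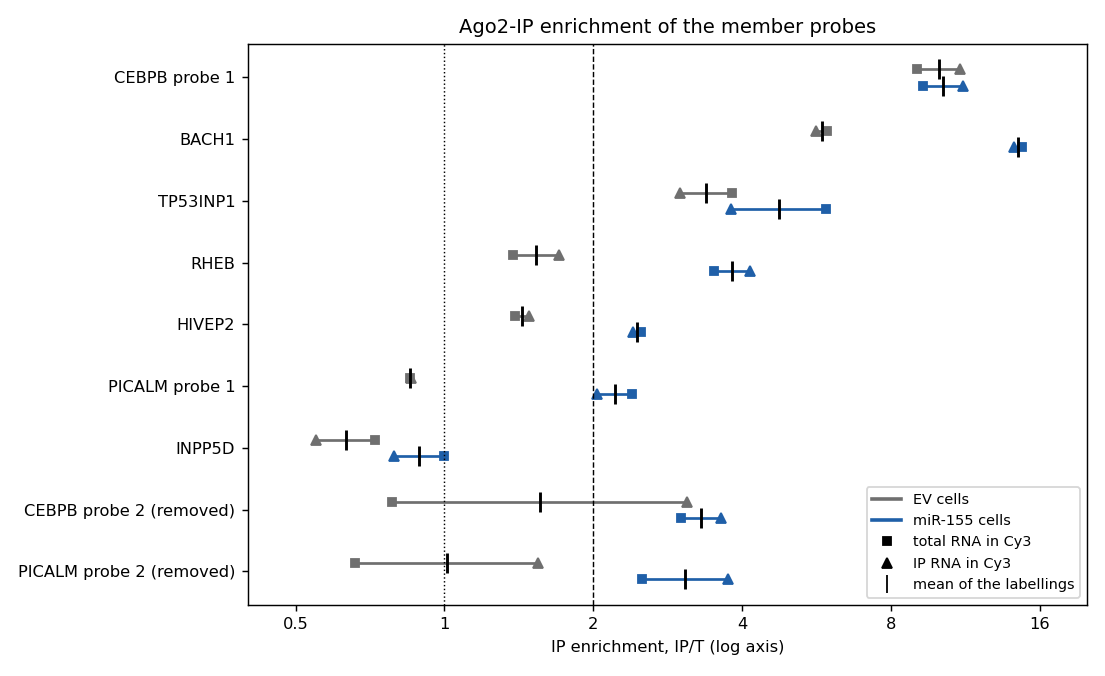
IP enrichment (log axis) of the 9 member probes detected in at least 4 channels, in EV (grey) and miR-155 (blue) cells. Squares are arrays with total RNA in Cy3, triangles arrays with IP RNA in Cy3, black ticks the mean, the dotted line an enrichment of 1 and the dashed line the threshold of 2. BACH1, RHEB, HIVEP2, INPP5D and both PICALM probes show ranges that do not overlap between the vectors, CEBPB probe 1 shows ranges that nearly coincide, and the EV range of CEBPB probe 2 runs from 0.784 to 3.10. Higher ranges without overlap need a miR-155/EV fold above 1 in both orientations, which 26.7% of all probes kept had.

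Counted together, 3 of the 7 member probes kept (BACH1, CEBPB probe 1 and TP53INP1) had an IP enrichment of at least 2 in EV cells, against 12.1% of all probes kept. In miR-155 cells 6 of the 7, all but INPP5D, reached this enrichment, against 12.2% of all probes. A miR-155/EV fold of at least 2 was seen for 3 of the 7, against 1.15% of all probes, and these 3 were also past the enrichment threshold in miR-155 cells, against 0.438%. The 3 were past a miR-155/EV fold of 2 in each dye orientation, which holds for 0.67% of all probes. At a fold of at least 1.5, HIVEP2 joined them, making 4 of 7 against 4.37%. The miR-155/EV fold was above 1 in both orientations for 7 of 7 member probes kept and for 26.7% of all probes. None of the 7 had an EV/miR-155 fold of at least 2, against 0.477% of all probes.

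The median log2 miR-155/EV fold of the 7 probes was 0.77, compared with -0.02 over all probes kept. Without BACH1, PICALM probe 1 and RHEB, the median of the 4 remaining probes was 0.49. The labelling error gives the scale for single probes. Over all probes kept, the dye orientations differed by a median of 0.30 in the log2 miR-155/EV fold, or 1.23-fold, and by up to 1.05, or 2.07-fold, in 95% of the probes. BACH1, PICALM probe 1 and RHEB were past a miR-155/EV fold of 2 in each orientation, which holds for 0.67% of all probes kept. The 4 remaining probes were below 2 in both, which says little, since only 1.15% of all probes had a mean fold of at least 2. Biological spread could not be measured with these arrays. With normexp and quantile normalization the count of member probes at a fold of at least 2 was 1 (RHEB), since BACH1 was at 1.94 and PICALM probe 1 at 1.62, and without the dye filter it was 5, with PICALM probe 2 and CEBPB probe 2 added. Both counts are of 9 member probes kept. The shares of all probes given here hold for the reported processing only.

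**Figure D3:**
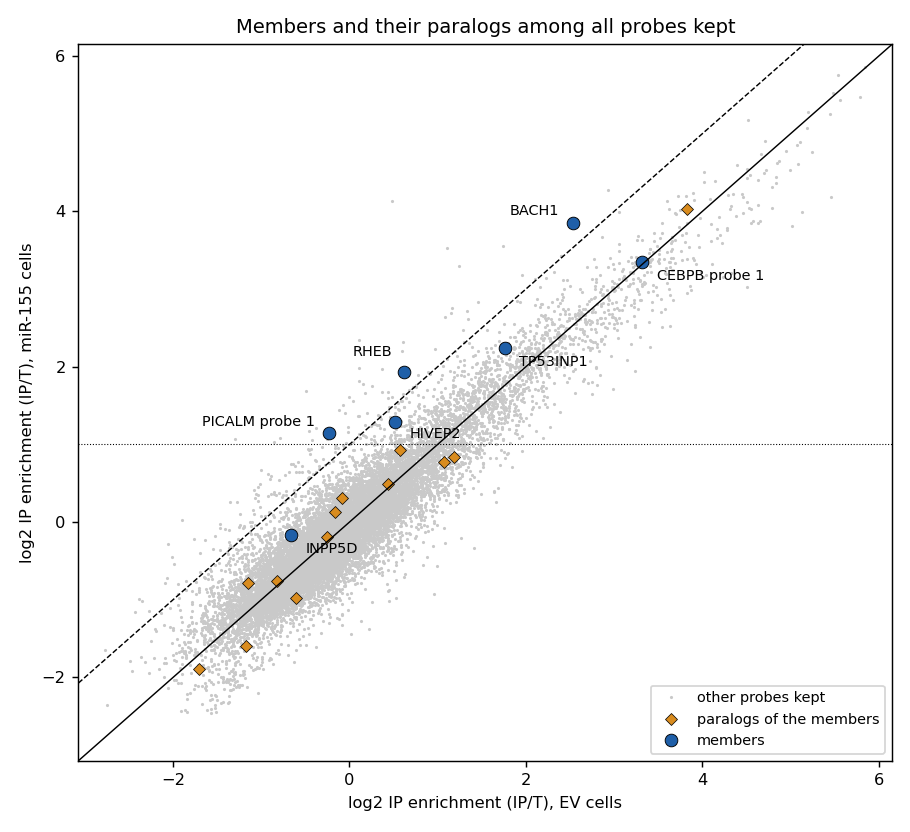
Log2 IP enrichment in EV cells (x axis) against that in miR-155 cells (y axis) for the 15529 probes kept (grey), the 7 member probes (blue) and 13 probes of their paralogs (orange). The solid line marks equal enrichment, the dashed line a miR-155/EV fold of 2 and the dotted line an IP enrichment of 2 in miR-155 cells. BACH1, RHEB and PICALM probe 1 lie above the dashed line, as do 1.15% of all probes kept, and no paralog does. With 13 probes, that does not set the paralogs apart from other probes.

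The total signal was at least 1.5-fold lower in miR-155 cells for 3 of the 7 probes, TP53INP1 (0.538 times that in EV cells), BACH1 (0.598) and RHEB (0.666), against 4.12% of all probes kept. It was at least 1.5-fold higher for 0 of 7, against 5.37%. The total signal was lower in both dyes for 7 of 7 member probes kept, against 34.5% of all probes, with HIVEP2 at 0.833, CEBPB probe 1 at 0.796, PICALM probe 1 at 0.909 and INPP5D at 0.980. As these are bulk samples, fewer cells with a transcript and less transcript per cell cannot be told apart. TP53INP1 was not past this threshold with normexp (0.861 with quantile normalization, 0.704 with loess and Aquantile), so the count was 2 there. RHEB lay at the threshold, and with the authors' deposited log2 values, where it was at 0.667, the count was 2. In the Cy5 labelling alone, TP53INP1 was at 0.646, BACH1 at 0.669 and RHEB at 0.689, so the count was 1. No share of all probes is given for these alternatives.

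Without quantile normalization the median total signal of all probes was higher in miR-155 cells by 0.44 on the log2 scale. On that scale INPP5D, CEBPB probe 1, HIVEP2 and PICALM probe 1 had a higher total signal in miR-155 cells, BACH1 (0.825) and RHEB (0.937) a lower one, TP53INP1 failed the dye filter, and 0 probes were 1.5-fold lower. Relative to the median of all probes, 5 of the 6 probes of the 7 still kept were lower, and INPP5D was at 1.01.

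The fractions separated the members further. The IP signal was higher in miR-155 cells in both dyes for 5 of 7 probes (BACH1, HIVEP2, INPP5D, PICALM probe 1 and RHEB), against 34.4% of all probes, and lower in both dyes for 2 of 7 (CEBPB probe 1 and TP53INP1), against 34.2%. Without quantile normalization the IP signal of CEBPB probe 1 was 1.01 times that in EV cells. The median IP signal of all probes was then higher in miR-155 cells by 0.44 on the log2 scale. Relative to the median of all probes, the IP signal of CEBPB probe 1 was at 0.744 to 0.819 over the ways of processing. For PICALM probe 1 and INPP5D the miR-155/EV fold came mostly from the IP fraction. For BACH1 and RHEB both fractions contributed in opposite directions. For TP53INP1 the fold came, with the reported processing, from a total signal that was lower by more than the IP signal. With normexp the IP signal of TP53INP1 was not lower.

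**Figure D4:**
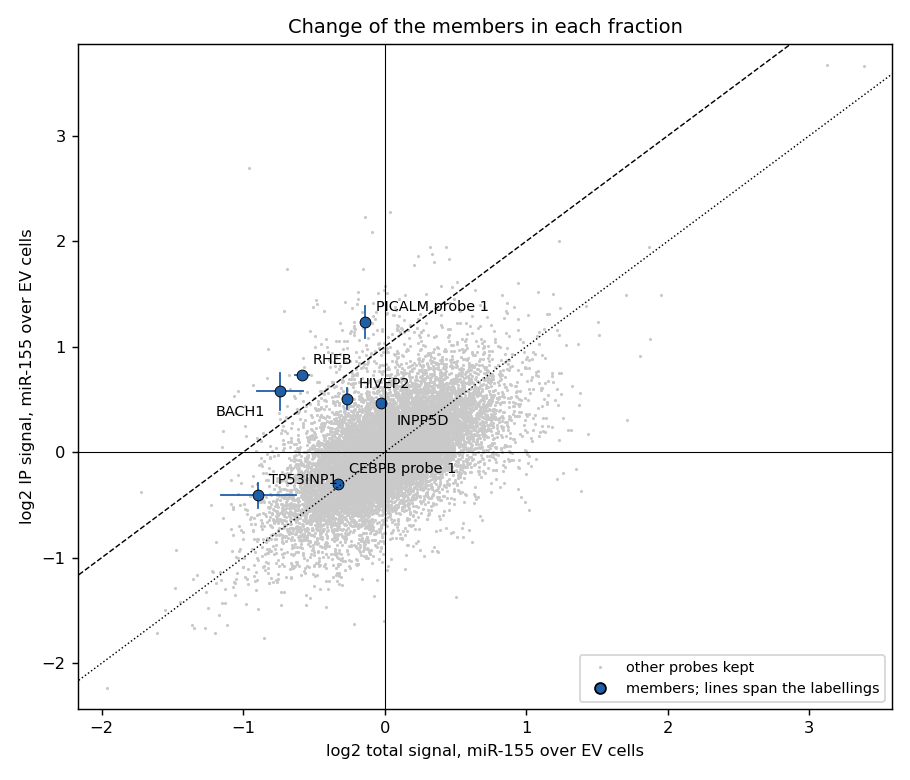
Log2 change from EV to miR-155 cells in the total fraction (x axis) and in the IP fraction (y axis) for all probes kept (grey) and the 7 member probes (blue), with lines that span the Cy3 and Cy5 labellings. The dotted line marks equal change in both fractions and the dashed line a miR-155/EV fold of 2. With the reported processing, BACH1 and RHEB have a lower total and a higher IP signal, PICALM probe 1 differs almost only in the IP, and TP53INP1 and CEBPB probe 1 are lower in both fractions.

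The paralogs of the members were set beside them, since they resemble the members in protein family but are not reported as a group of miR-155 targets. Of 25 probes for 20 paralogs, 13 probes for 12 genes were kept. None of the 13 had a miR-155/EV fold of at least 1.5 or of at least 2, against 4.37% and 1.15% of all probes kept. With so few probes, this does not set the paralogs apart from other probes. The fold was above 1 in both orientations for 5, against 26.7%. The median miR-155/EV fold of the 13 was 1.05. RHEBL1, the RHEB-like GTPase, had a high IP enrichment with both vectors, 14.2 in EV and 16.4 in miR-155 cells, and a fold of 1.16 (1.15 and 1.18). BACH2, the B-cell counterpart of BACH1, had a miR-155/EV fold of 0.784 (0.860 and 0.714), with IP enrichments of 2.27 and 1.78. HIVEP1 (1.28, with 0.954 and 1.72) and TP53INP2 (1.23, with 0.748 and 2.01) were dim, and their orientations fell on both sides of 1. INPPL1, which encodes SHIP2, had a fold of 1.28 (1.45 and 1.13), and SPIB, the ETS factor most like PU.1, was detected in all 8 channels with a fold of 1.05 (1.06 and 1.04). CEBPA was the 1 paralog with a total signal at least 1.5-fold lower in miR-155 cells, against 4.12% of all probes kept. It was at 0.650, and at 0.602 to 0.911 over the ways of processing, and its miR-155/EV fold was 0.746. The folds of CEBPG, CEBPZ, MAFA, MAFG and MAFK lay between 0.775 and 1.32.

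Among 56 other genes reported elsewhere as miR-155 targets, 61 probes for 38 genes were kept. Of these, 17 had an IP enrichment of at least 2 in EV and 23 in miR-155 cells, against 12.1% and 12.2% of all probes kept. A miR-155/EV fold of at least 2 was seen for 7 (1.15% of all probes) and an EV/miR-155 fold of at least 2 for 0 (0.477%). The fold was above 1 in both orientations for 33 (26.7%). Both thresholds were passed by 5 (0.438%). The median miR-155/EV fold of the 61 probes was 1.21, compared with 1.71 for the members kept and 0.983 for all probes kept. The 5 probes past both thresholds measure JARID2, a subunit of Polycomb complex PRC2 (IP/T 2.24 to 6.78), PSKH1, a serine kinase (3.35 to 11.7), TAB2, an adaptor of TAK1 signalling (2.75 to 7.16), and TRIM32, a ubiquitin ligase (0.408 to 2.11 and 0.710 to 3.21 on 2 probes). JARID2 and TRIM32 are also named by the study among its targets from these arrays. All 4 genes were past the thresholds that the study used on the same arrays, so they add no independent evidence. The other 2 probes with a fold of at least 2 missed the threshold of IP enrichment in miR-155 cells. One was DUSP14, a phosphatase named here after its value was seen, with IP enrichments of 0.897 and 1.99 and a miR-155/EV fold of 2.22 (2.02 and 2.43). The other was ZNF652, a zinc-finger repressor, with IP enrichments of 0.573 and 1.46 and a fold of 2.54 (1.57 and 4.11). The total signal of ZNF652 was 0.304 times and that of PSKH1 0.563 times that in EV cells. These were the 2 probes of the list that were at least 1.5-fold lower, against 4.12% of all probes kept. At least 1.5-fold higher were 3, against 5.37%. Over the ways of processing in which each probe was kept, the miR-155/EV fold of ZNF652 ranged from 1.37 to 4.11 and its total signal from 0.230 to 0.645 times that in EV cells, the folds of the TRIM32 probes ranged from 1.72 to 7.36 and from 3.44 to 4.70, and that of DUSP14 from 1.95 to 2.43.

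Genes that act with the members were counted in the same way. Of all probes kept, 1.15% had a miR-155/EV fold of at least 2. The total signal was at least 1.5-fold lower in miR-155 cells for 4.12% of them and at least 1.5-fold higher for 5.37%. With so few probes per list, a count of 0 or 1 does not set a list apart from other probes. Of 16 probes kept for the RHEB-mTORC1 pathway, 0 had a miR-155/EV fold of at least 2 and 0 a 1.5-fold difference in total signal, with a median miR-155/EV fold of 1.09. Of 20 probes for PI3K signalling around SHIP1, 1 had a fold of at least 2, a dim probe for AKT2 named after its value was seen (2.47, IP/T 0.580 in miR-155 cells), and the median was 1.02. Of 16 probes for clathrin endocytosis around PICALM, 1 was at least 2, a dim probe for EPS15 also named after its value was seen (2.10, with 3.25 and 1.36), and the median was 1.19. Of 11 probes for targets and partners of BACH1, 0 had a fold of at least 2 and 4 had a total signal at least 1.5-fold lower in miR-155 cells. All 4 measure FTH1, the ferritin heavy chain, at 0.516 to 0.647 times the signal of EV cells, and at 0.448 to 0.828 times over the ways of processing. FTH1 has many near-identical pseudogene copies, so its probes may measure more than 1 transcript and are not separate genes.

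The genes whose probes lay nearest to a member over IP/T in EV cells, IP/T in miR-155 cells and total change were sought among 11043 other probes with a symbol. The nearest to BACH1 were CSRP2, FGF7 and TBC1D20, with miR-155/EV folds of 2.04, 2.04 and 1.41. The nearest to RHEB were LNX2, CSNK1G2 and SLFN11, with folds of 2.01, 2.02 and 1.75. Those nearest to PICALM probe 1 were CENPI and TBC1D14, with folds of 2.51 and 3.03, and HEATR5B. The likeness rests on means over 4 arrays and is a description only.

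**Figure D5:**
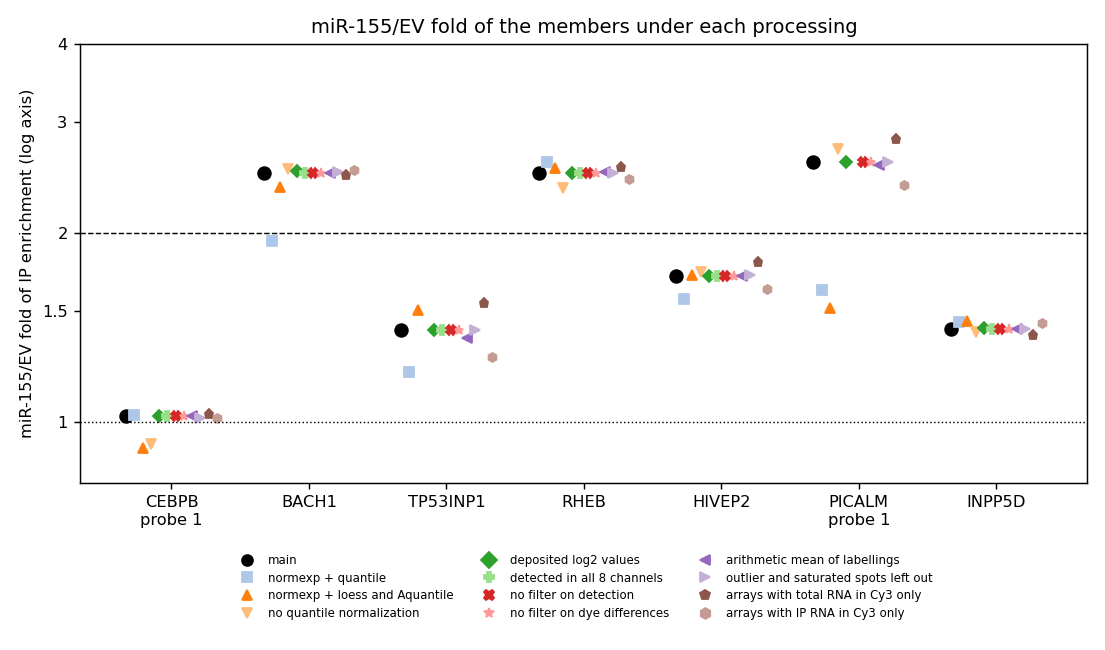
MiR-155/EV fold of the IP enrichment (log axis) for the 7 member probes kept, under the reported processing (black) and 11 alternatives (coloured symbols), shown where the probe was kept. The dotted line is a fold of 1 and the dashed line the threshold of 2. RHEB lies above 2 under every processing, BACH1 under all but 1, PICALM probe 1 falls to between 1.5 and 2 with normexp, and CEBPB probe 1 stays close to 1.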

How the data were processed

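Intensity values per spot were deposited for each channel, background-subtracted and dye-normalized by the authors with Agilent Feature Extraction 10.5.1.1. The deposited log2 values were made by the authors in GeneSpring by quantile normalization and filtering. From the intensities, control spots were removed, repeated spots were averaged, 1 was the lowest signal allowed, and log2 signals were quantile-normalized over the 8 channels. Probes had to be detected in at least 4 channels and to differ no more than 2-fold between dyes, the labellings were averaged, and IP enrichments (IP/T) and miR-155/EV folds were formed. Of the deposited log2 values of 14453 probes, 99.9% lay within 0.05 of those made here. Detected probes numbered 14094 to 22161 per channel, and the number of arrays limits the precision.

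Symbols came from the RefSeq accessions. Named were all members, their kept paralogs, list genes past both thresholds or with a total signal at least 1.5-fold lower, and the 3 nearest probes of each member past both thresholds. The members and lists were chosen with earlier results of these data known. A cell type marker is not reported here. The thresholds of 2 for IP enrichment and for the miR-155/EV fold were those of the study, and 1.5 for the total signal was chosen here. Alternatives were normexp (offset 50, local backgrounds above 500 capped, 33 values), other normalizations, filters, averages and thresholds, the deposited values and each dye orientation. Ratios given for undetected probes are those of their signals with normexp, loess and Aquantile. A floor at the dimmest probe well above background changed none of them. The ratio step was tested on simulated data. R 4.3.3 with limma 3.58.1 and Python 3.11.15 with pandas 2.3.3, numpy 2.4.6 and matplotlib 3.10.9 served for these steps.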

Additional observations from a re-analysis of the deposited data

Results flagged for a closer look

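PICALM probe 1 had an IP enrichment below 1 in EV cells in both dye orientations (0.851 and 0.855) and above 1 in miR-155 cells in both (2.40 and 2.04). Within a dye, the EV fractions went both ways. The IP signal was above the total signal in Cy3 (148 and 124) and below it in Cy5 (105.3 and 173). With normexp, loess and Aquantile the IP enrichment of EV cells was 0.954. A lower IP than total signal in EV cells is therefore not established. The miR-155/EV fold was 2.59. The difference was not tested, since each vector has 1 RNA sample per fraction. One of the IP labellings of EV cells was not detected, so the enrichment in these cells rests on a signal near background in that channel.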

How the results depend on the processing

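No paired analysis was possible because each vector and fraction has 1 RNA sample, the labellings are technical repeats, and no result comes from a test. Slide as a block was not run, since 0 of the 2 slides hold both vectors. The count of member probes with a miR-155/EV fold of at least 2 (3 as reported) was 1 with normexp and quantile normalization and 5 without the dye filter, each of 9 probes kept. The count with a total signal at least 1.5-fold lower (3) was 0 without quantile normalization and ranged from 1 to 3 between the dye orientations taken alone. No share of all probes is given for these alternatives. The median log2 miR-155/EV fold of the member probes kept (0.77, over 7 probes) was 0.53 with normexp and quantile normalization. It was 0.59 with normexp, loess and Aquantile. Both normexp medians are over 9 probes, with the second probes of CEBPB and PICALM added. Without quantile normalization it was 1.24, with TP53INP1 left out and PICALM probe 2 added. These medians therefore do not compare the same probes. The median was 0.63 with detection in all 8 channels, which leaves out PICALM probe 1, and 1.08 without the dye filter, which adds the second probes of CEBPB and PICALM. With a dye orientation alone it lay between 0.70 and 0.84. Except where a filter adds or removes probes, the cause was not tested. The other 52 recomputed values were counts within 1.5 times the reported count, or medians that moved by less than the SD of the medians from the dye orientations. Of the log2 miR-155/EV folds of single probes, 64 moved by less than the SD between the dye orientations of that probe and 11 by more. CEBPB probe 1 lay below 1 under normexp with loess and without quantile normalization. SPI1, MAF and both PICALM probes are limited by signal over background.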
